A study of Mus musculus with 4 samples.

Results

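The 84 nuclear genes described here encode subunits of the mitochondrial respiratory chain and of ATP synthase in mouse Achilles tendon. They are all genes of the deposited feature list whose symbols are Nduf followed by a, b, c, s or v and a number, Sdha to Sdhd, or begin with Uqcr, Cox4 to Cox8 or Atp5, with pseudogenes named -ps left out, and they make up 84 of 33696 listed genes. By complex, 36 belong to complex I, 4 to complex II, 8 to complex III, 19 to complex IV (Ndufa4 is counted there) and 17 to complex V, the ATP synthase. The study sequenced single cells of 4 tendon samples: uninjured tendon at postnatal day 3, injured tendon at the same labelled age, uninjured tendon of mice aged 6 to 8 weeks, and injured tendon of mice aged 6 to 8 weeks. No genotype, sex, number of animals or time from injury to harvest was given in the sources used here. Each group was 1 library, so no test between ages or between injured and control tendon was possible, and differences between libraries are given with intervals for counting error only.

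The respiratory chain passes electrons from NADH (complex I) and succinate (complex II) through complexes III and IV to oxygen, and complex V uses the resulting proton gradient to make ATP. Most subunits are encoded in the nucleus, while a small set, written mt- in mouse, is encoded in mitochondrial DNA, so a working chain needs products of both genomes. Tendon fibroblasts live in a poorly vascularised matrix and are known for a low rate of oxygen use, whereas muscle fibres and the contractile cells of vessel walls hold more mitochondria.

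Nuclear respiratory genes are known to share binding motifs for NRF1 and ETS-family factors such as GABP near their start sites. Of the 84 members, 69 matched a promoter window of 250 bases before to 50 bases after the start in RefSeq (GRCm38.p6). The NRF1 half-palindromic core CGCANGCG, sought on both strands, was in 26 of these 69, or 37.7%, against 12.5% of 17492 protein-coding genes. The ETS motif CCGGAAG was in 24.6% of members against 12.9% of coding genes, the YY1 motif AAGATGG in 15.9% against 7.18%, and the CRE TGACGTCA in 5.80% against 2.54%. These are letter matches, not binding sites. After neonatal injury 16 members were lower in all 4 cell classes compared below. Of these, 14 matched a window and 2 held the NRF1 letters (Atp5g3 and Atp5o). Of 5 members higher in all 4 classes after that injury, 3 matched and 1 held them (Uqcr11). After adult injury 14 members were lower in all 4 classes. Of these, 12 matched a window and 6 held the NRF1 letters (Ndufa5, Ndufa12, Atp5h, Ndufa6, Ndufb10 and Ndufa11). Whether the letters went with the ratios was not tested. The 150 bases before the start of 4 of the 14, all complex I subunits, are shown 5′ to 3′ on the gene's strand, with the first motif in capitals: the NRF1 letters in Ndufb10 (minus strand, chr17:24724424-24724573), Ndufa11 (plus strand, chr17:56717612-56717761) and Ndufa5 (minus strand, chr6:24527691-24527840), and the ETS letters in Ndufb7 (plus strand, chr8:83566608-83566757).
Ndufb10: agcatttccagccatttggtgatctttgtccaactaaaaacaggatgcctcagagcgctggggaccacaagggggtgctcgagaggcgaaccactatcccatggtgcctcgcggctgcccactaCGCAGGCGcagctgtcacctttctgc
Ndufa11: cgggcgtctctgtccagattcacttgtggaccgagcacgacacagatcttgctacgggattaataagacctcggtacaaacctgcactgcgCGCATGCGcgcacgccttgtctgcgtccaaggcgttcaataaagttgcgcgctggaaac
Ndufa5: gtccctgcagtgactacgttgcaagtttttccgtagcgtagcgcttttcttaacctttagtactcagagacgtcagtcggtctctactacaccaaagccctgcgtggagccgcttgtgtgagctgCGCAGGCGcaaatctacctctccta
Ndufb7: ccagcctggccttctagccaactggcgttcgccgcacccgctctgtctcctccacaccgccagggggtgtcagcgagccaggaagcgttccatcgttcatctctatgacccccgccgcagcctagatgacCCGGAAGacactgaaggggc
The motif began 26 bases before the start in Ndufb10, 59 in Ndufa11, 25 in Ndufa5 and 20 in Ndufb7.

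Values given for all libraries run through both neonatal libraries and then both adult ones, each control before its injury. After filtering, the libraries held 9559 and 13112 cells (neonatal control and injury) and 5814 and 4454 cells (adult control and injury), with median depths of 5558 UMIs per cell in the neonate injury library and 9549.5 to 10349 in the others. A UMI is a molecular tag that counts each captured RNA molecule once, and CPM scales a gene's UMIs by the class's summed UMIs to a total of 1000000. Pairs of libraries shared 3 to 49 cell barcodes. Cells were assigned by marker genes to classes that resemble fibroblast-lineage, macrophage, endothelial, mural (vessel wall) and other cells. These are called by the short names below, and 89.6% to 95.4% of cells of a library received one. The libraries also differed in sex transcripts: 87.0% of fibroblast-lineage cells of the neonate control held Y-linked UMIs and no Xist, against 14.4% of the neonate injury library and 0.051% or fewer in the adult libraries. Age and neonatal injury therefore cannot be told apart from sex in comparisons with the neonate control.

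In neonatal tendon muscle cells devoted the largest share of their RNA to the 84 genes, and in the adult control mural cells did. In the neonate control, myofibre-like cells (51 cells, median 2250 UMIs) drew 3.31% of their UMIs from the members, myogenic progenitors 1.79% and mural cells 1.64%, against 1.09% in the fibroblast lineage and 0.668% in neutrophils. In the neonate injury library myogenic progenitors ranked first at 2.11% and the fibroblast lineage last of 9 classes at 0.976%. In the adult control, mural cells ranked first at 1.79% and the fibroblast lineage last of 8 classes at 0.998%. In the adult injury library the order differed: macrophages had 0.999%, endothelial cells 0.986%, mural cells 0.931% and the fibroblast lineage 0.886%, so that the first 4 of 6 classes lay within a narrow band, above T or NK cells at 0.763% and neutrophils at 0.497%.

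**Figure D1:**
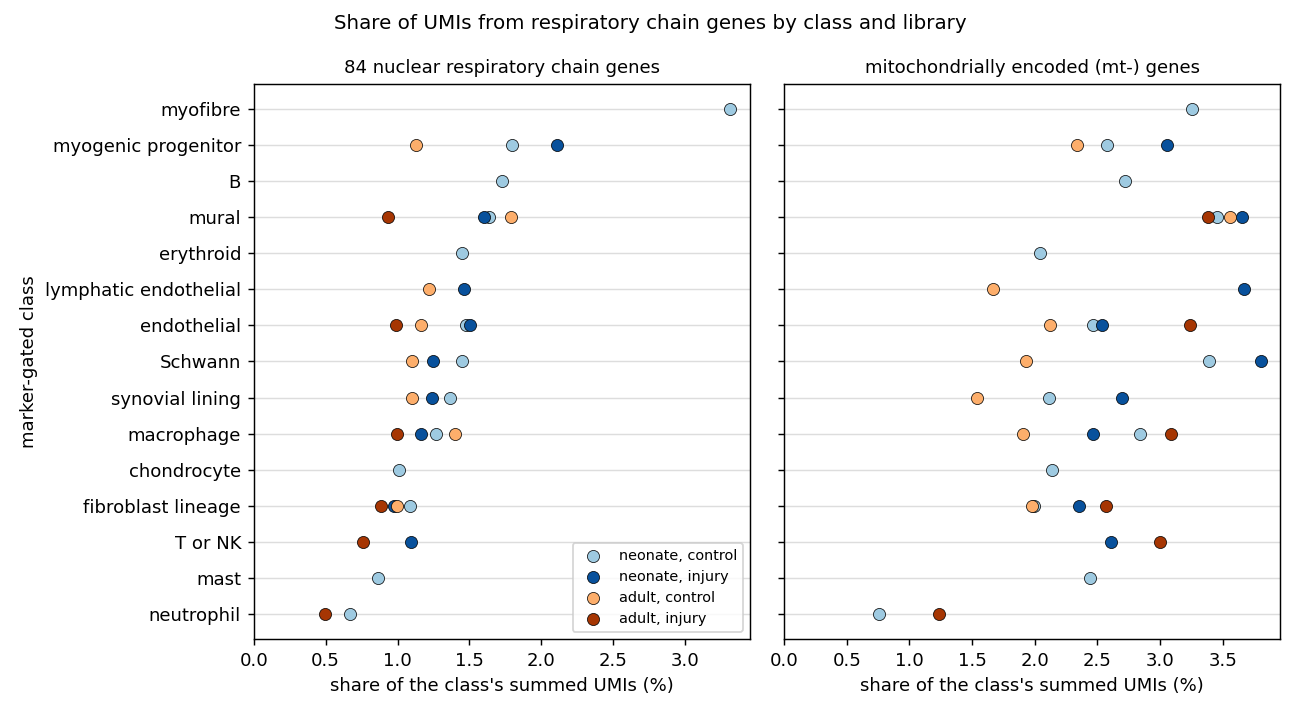
Each point is 1 class of 1 library with at least 50 cells; the left x axis is the share (%) of the class's summed UMIs from the 84 nuclear genes and the right x axis the share from mt- genes. Mural cells of the adult injury library sit at 0.931%, below the 1.60% to 1.79% of the other 3 libraries, while their mt- share stays at 3.39% beside 3.45% to 3.66%.

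The share of UMIs from mitochondrially encoded genes did not follow the same order between libraries. In mural cells the mt- share was 3.45% and 3.66% in the neonatal libraries and 3.56% and 3.39% in the adult ones, while the nuclear members' share was 1.64%, 1.60%, 1.79% and 0.931%. Fibroblast-lineage cells had an mt- share of 1.99%, 2.36%, 1.98% and 2.57%, higher in both injured libraries than in both controls, whereas the nuclear members' share was 1.09%, 0.976%, 0.998% and 0.886%, lower in each injured library than in its control. In macrophages the mt- share was 2.84%, 2.47%, 1.91% and 3.09%. In endothelial cells it was 2.47%, 2.54%, 2.12% and 3.24%. The members' share of the median mural cell followed the order of the sums, at 1.63%, 1.52%, 1.69% and 0.788%. The middle quartiles of adult control (1.15% to 2.18%) and adult injury (0.617% to 1.05%) mural cells did not overlap. Other medians went against the sums. The median mural mt- share was 3.40% in the adult control and 3.60% after injury. In the adult injury library the median mural cell lay below the median fibroblast-lineage cell, at 0.824%.

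Only between cell classes could differences be tested, since 4 classes had at least 50 cells in each of the 4 libraries. Against the fibroblast lineage, mural cells had 24 of 82 tested members higher and 2 lower (edgeR quasi-likelihood test with library as a block, Benjamini-Hochberg adjusted p below 0.05), where 11.4% of 15076 genes were higher and 18.8% lower. The median log2 fold change of the members was 0.37 in mural cells, with 71 of 82 above 0, and -0.10 over all genes; 4 of 13 mitochondrially encoded genes were also higher. Without the adult injury library 46 members were higher in mural cells, without the neonate control library 10 and without the neonate injury library 8. Macrophages had 24 members higher and 1 lower than the fibroblast lineage (24.9% and 33.5% of all genes). The share higher was close to that of all genes, and the share lower was below it. Their members' median was 0.215, with 64 of 82 above 0, and -0.13 over all genes. The macrophage count fell to 11 without the neonate control library and to 10 without the neonate injury library. Endothelial cells had 12 higher and 4 lower (18.8% and 24.8% of all genes). Their members' median was 0.12, with 59 of 82 above 0, and -0.06 over all genes. The endothelial count higher was 4 when the neonate control or the neonate injury library was left out and 18 when either adult library was. With DESeq2 20 members were higher in endothelial and 45 in mural cells, and edgeR without the library block called 6 in macrophages, 2 in endothelial cells and 4 in mural cells. The shares of all genes called in these alternative fits, and with a library left out, are not given here.

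All 4 succinate dehydrogenase subunits were higher in macrophages than in the fibroblast lineage, and 4 of 8 complex III subunits were higher in each of macrophages, endothelial cells and mural cells. Sdhc, a membrane anchor of complex II, was at 126, 129, 148 and 126 CPM in mural cells of the 4 libraries, against 55.9, 60.4, 46.7 and 76.4 CPM in the fibroblast lineage, without overlap (log2 fold change 0.95 ± 0.19 SE, edgeR adjusted p = 0.00213). Cox5a, a general complex IV subunit, was at 387, 241, 287 and 240 CPM in macrophages and at 407, 255, 227 and 205 CPM in endothelial cells, against 189, 103, 112 and 131 CPM in the fibroblast lineage. Its log2 fold change was 1.07 ± 0.15 in macrophages (edgeR adjusted p = 6.31e-05) and 0.84 ± 0.15 in endothelial cells (edgeR adjusted p = 0.000707), and it was higher in 4 of 4 libraries in both. Ndufa8, an accessory complex I subunit, was at 378, 202, 198 and 173 CPM in endothelial cells against 172, 70.0, 88.7 and 69.0 CPM in the fibroblast lineage (log2 fold change 1.11 ± 0.13, edgeR adjusted p = 1.41e-05). Ndufc2, another accessory subunit, was 1.81-fold higher in endothelial cells, and Ndufs8, an iron-sulphur subunit of the catalytic core, was 1.71-fold higher in macrophages and 1.68-fold higher in endothelial cells (edgeR adjusted p = 0.00396, 0.000883 and 0.00177). Ndufb8 and Ndufb7, accessory subunits of the membrane arm, were 1.85-fold and 1.71-fold higher in macrophages (edgeR adjusted p = 0.000766 and 0.00912), and Ndufb7 lost its call without the neonate injury library. Ndufa4 was the general subunit called lower in mural cells, at 138, 93.9, 265 and 87.6 CPM against 314, 193, 187 and 206 CPM in the fibroblast lineage. It was lower in 3 of 4 libraries and higher in the adult control, and its call (log2 fold change -0.94 ± 0.30, edgeR adjusted p = 0.0332) was lost without any 1 of the other 3 libraries.

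Several complex IV subunits have a second gene used in particular tissues, and these isoforms had the largest fold changes among the members called in each class. Cox4i2 encodes the isoform of subunit 4 known from lung, vessel walls and oxygen-sensing cells, and Cox4i1 the general one. Mural cells held 230, 156, 141 and 72.3 CPM of Cox4i2 in the 4 libraries in the order above, against 4.46, 1.19, 15.6 and 1.08 CPM in the fibroblast lineage (log2 fold change 4.93 ± 0.71, edgeR adjusted p = 0.000247, higher in 4 of 4 libraries). As a share of both subunit 4 genes, Cox4i2 was 19.98%, 18.6%, 15.01% and 17.9% in mural cells, so the share in the adult injury library lay among those of the others although the levels of both genes were lower there. Chondrocytes of the neonate control, the 1 library with enough of them, gave the highest share, 24.8% (95% exact binomial interval 23.7 to 26.0), at 171 CPM. Endothelial cells gave 4.41%, 3.48%, 1.25% and 1.04%, with both neonatal libraries above both adult ones, and synovial lining cells of the adult control 4.87%. Mural RNA was measurable in the endothelial cells: Rgs5, a mural marker, was at 468, 523, 224 and 531 CPM there, and the 8 mural markers summed to 1115, 1037, 395 and 1244 CPM, with 0 of the 8 at zero in any library. Their part in the endothelial shares was not tested.

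Fibroblast-lineage cells differed in Cox4i2 between libraries. It made up 2.92% of subunit 4 UMIs in the adult control (665 UMIs), against 0.728%, 0.246% and 0.322% in the neonate control and in both injured libraries (neonate first), and its CPM was 14.3-fold lower after adult injury (log2 ratio -3.83). The level in mural cells of the same libraries differed by less, 141 against 72.3 CPM. Cox8b, the muscle and brown fat isoform of subunit 8, was also high in adult control fibroblast-lineage cells, with 208 UMIs (4.87 CPM) in the control and 8 UMIs (0.177 CPM) after injury, while the neonatal libraries held 118 and 123 UMIs (1.90 and 2.22 CPM). Mural cells had 1 Cox8b UMI over all libraries, and the gene was called lower there than in the fibroblast lineage (edgeR adjusted p = 0.0124). Its lower call in endothelial cells (edgeR adjusted p = 0.0274) was lost without the adult control library. The fibroblast-lineage cells of the 2 adult libraries also differed in their markers. Dcn was at 18806 CPM in the adult control and 3084 CPM after injury, Fmod at 3005 and 393 CPM and Tnmd at 579 and 101 CPM. Others went the other way, with Col3a1 at 2798 and 17474 CPM and Lum at 428 and 974 CPM. The part of such differences between cells in the Cox4i2 and Cox8b values was not tested.

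**Figure D2:**
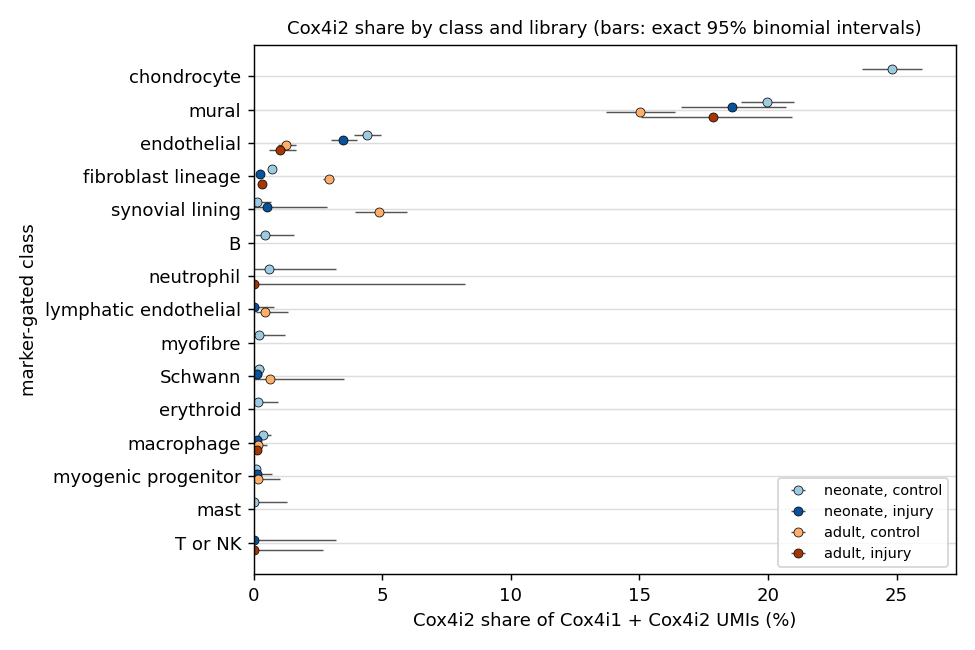
The x axis is the share (%) of Cox4i2 among the UMIs of Cox4i1 and Cox4i2 and each point is 1 class of 1 library, with exact 95% binomial intervals as bars. Chondrocytes (24.8%) and mural cells (15.01% to 19.98%) lie apart from all other classes, which stay at or below 4.87%.

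The muscle isoforms were found in myofibre-like cells and at low levels elsewhere. Cox6a2, the heart and skeletal muscle isoform of subunit 6a, made up 74.0% of the subunit 6a UMIs in myofibre-like cells (292 CPM), Cox8b 30.0% of subunit 8 (267 CPM) and Cox7a1 12.6% of subunit 7a (71.5 CPM). Macrophages held 7.12, 7.52, 4.35 and 3.44 CPM of Cox6a2 and 6.06, 5.93, 7.84 and 4.53 CPM of Cox7a1, on 10 to 52 UMIs each. The fibroblast lineage held 2.08, 0.468, 0.234 and 0.199 CPM of Cox6a2 and 0.656 to 0.847 CPM of Cox7a1. Both were called higher in macrophages (log2 fold change 3.33 ± 0.47 for Cox6a2 and 2.94 ± 0.36 for Cox7a1, edgeR adjusted p = 6e-05 and 1.5e-05). Cox7a1 was also higher in mural cells at 4.49, 13.9, 9.46 and 2.94 CPM (edgeR adjusted p = 7.16e-05). For comparison, endothelial cells of the same libraries held 0.148 to 1.11 CPM of Cox6a2 and 0.394 to 1.80 CPM of Cox7a1. RNA of myofibres was present outside them. The 9 myofibre markers summed to 620, 80.5, 9.58 and 11.1 CPM in macrophages (2, 0, 4 and 2 of the 9 at zero), 315, 35.8, 11.1 and 10.7 CPM in the fibroblast lineage (1, 0, 1 and 2 at zero), 90.0, 42.0, 9.48 and 9.38 CPM in endothelial cells (0, 1, 2 and 4 at zero) and 80.9, 26.1, 10.8 and 7.64 CPM in mural cells (2, 1, 2 and 5 at zero). In 3 of 4 libraries myofibre-like cells held more Cox6a2 UMIs than any other class. The part of myofibre RNA in the macrophage and mural values was not tested.

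Cox6b2, known as the testis isoform of subunit 6b, differed between the neonatal and the adult libraries. It made up 7.56% and 7.07% of subunit 6b UMIs in neonatal fibroblast-lineage cells (control and injury) and 1.36% and 2.14% in adult ones. In mural cells the shares were 10.6%, 17.4%, 3.71% and 6.40%, again with both neonatal libraries above both adult ones, and the level was higher than in the fibroblast lineage by 1.59 ± 0.35 on the log2 scale (edgeR adjusted p = 0.00484, lost without the neonate injury library). Erythroid cells of the neonate control reached 28.4%. Its lower call in endothelial cells (edgeR adjusted p = 0.0175) was lost without any 1 of the neonate control, neonate injury and adult injury libraries. Cox7b2 and Cox8c, known from testis, were near absent, with at most 8 and 5 UMIs in any library.

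The libraries were then compared within each class for genes with at least 50 UMIs over the libraries compared, and a gene was called when its CPM differed at least 1.5-fold. Adult injury gave the most one-sided result. After adult injury 22 of 81 tested members were lower in the fibroblast lineage and 4 higher (24.9% and 27.2% of all tested genes), 35 of 78 lower and 0 higher in macrophages (22% and 20.1% of all genes), 19 of 78 lower and 0 higher in endothelial cells (17.5% and 17.8%), and 61 of 79 lower and 0 higher in mural cells (19.8% and 29.7%). The share of members lower in the fibroblast lineage was thus close to that of all genes, while the share higher was below it. The median log2 ratio of the members was -0.26, -0.51, -0.23 and -0.94 in the 4 classes, where all tested genes had medians of 0.03, -0.08, 0.01 and 0.18. Without cycling cells (at least 2 UMIs of a list of G2/M genes), which made up 38.6% of adult injury and 1.17% of adult control fibroblast-lineage cells, the members higher in the fibroblast lineage fell from 4 to 1 and the members lower in endothelial cells rose from 19 to 31. Cycling fibroblast-lineage cells of the injured adult tendon gave 0.970% of their UMIs to the members and the other cells 0.798%. Median depth was 20073 UMIs per fibroblast-lineage cell after adult injury and 11404 in the adult control. The part of depth in the share of cells counted as cycling was not tested. Class markers also differed between the adult libraries, as given above for the fibroblast lineage. In macrophages C1qa was at 3361 CPM in the adult control and 1496 CPM after injury and Mrc1 at 2085 and 868 CPM, while Adgre1 was at 357 and 492 CPM. The part of such differences in the members' ratios was not tested.

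**Figure D3:**
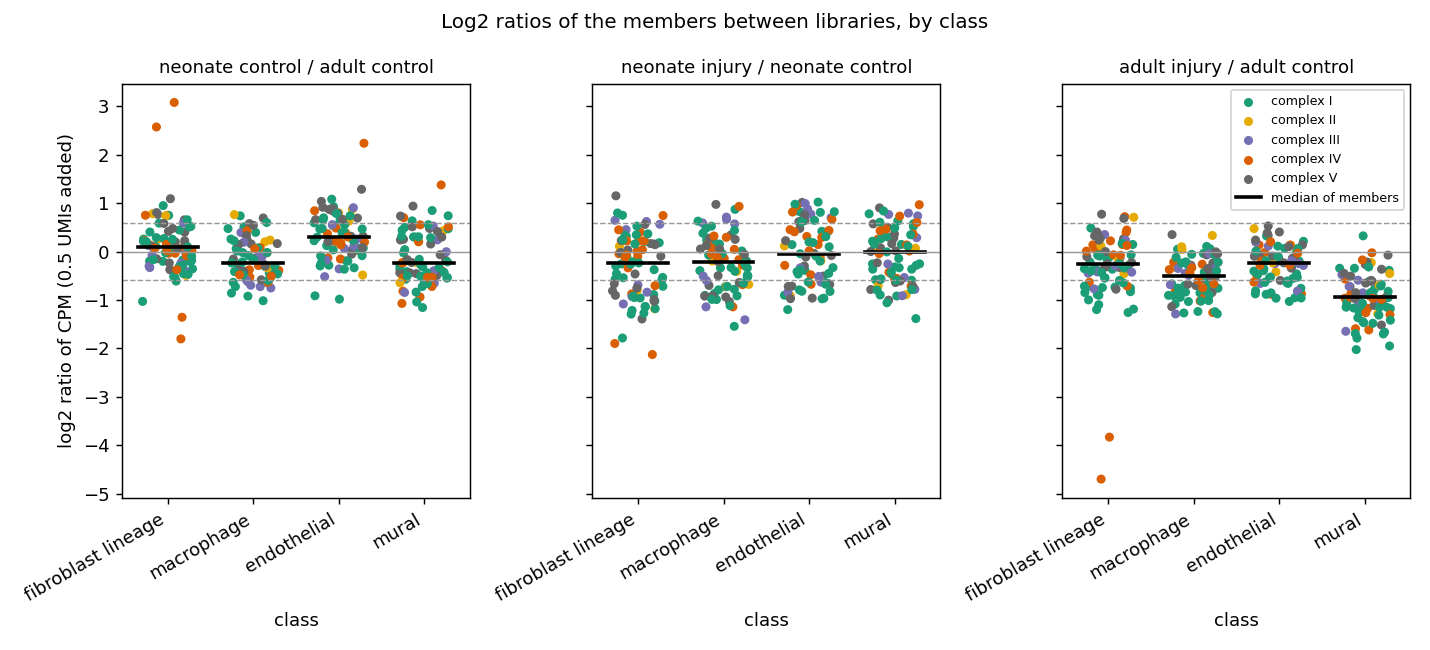
Each point is 1 tested member, coloured by complex; the y axis is the log2 ratio of CPM between the libraries named above each panel, the x axis the class, the black bars the medians and the dashed lines 1.5-fold. In the adult injury panel 61 of 79 mural points lie below the lower dashed line and 0 above the upper one.

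After adult injury 24.9%, 22%, 17.5% and 19.8% of all tested genes were lower in the fibroblast lineage, macrophages, endothelial cells and mural cells. Among the members, complex I, which holds 36 of the 84, had the largest number of lower calls. Of its 36 subunits, 16 were lower after adult injury in the fibroblast lineage, 22 in macrophages, 13 in endothelial cells and 31 in mural cells, with 0 higher in any of them, and the medians were -0.49, -0.72, -0.47 and -1.15 on the log2 scale. Complex V moved less in the fibroblast lineage, where 1 of 17 subunits was lower and 2 were higher (median 0.00), and in endothelial cells (1 lower, median -0.09), but 10 of 17 were lower in mural cells. Complex II had 0 of 4 subunits lower in the fibroblast lineage, macrophages and endothelial cells and 2 in mural cells. The 13 mitochondrially encoded subunits went the other way in 3 classes, with medians of 0.20 in the fibroblast lineage, 0.57 in macrophages and 0.53 in endothelial cells, and 0.03 in mural cells.

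Across classes, 14 of the 77 members tested in all 4 classes were lower after adult injury in every class, and 0 were higher in every class; of 7923 genes so tested, 3.07% were lower and 4.46% higher in every class. Of the 14, 11 belong to complex I (Ndufa5, Ndufa6, Ndufa9, Ndufa11, Ndufa12, Ndufa13, Ndufb7, Ndufb10, Ndufs7, Ndufs8 and Ndufv1), and the others are Uqcrb of complex III, Cox4i1 of complex IV and Atp5h of complex V. The classes come from the same libraries, so these are not independent repeats. Ndufs7, which holds the last iron-sulphur cluster before ubiquinone, was at 78.7 CPM in adult control and 32.9 CPM in adult injury fibroblast-lineage cells, at 104 and 54.1 CPM in macrophages, at 70.5 and 41.6 CPM in endothelial cells and at 149 and 36.4 CPM in mural cells. It was lower in each class, by 2.39-fold, 1.92-fold, 1.69-fold and 4.07-fold. Ndufb10, an accessory subunit of the membrane arm whose promoter is shown above, went from 154 to 71.8 CPM in the fibroblast lineage (2.14-fold), from 177 to 73.6 CPM in macrophages (2.41-fold), from 123 to 62.9 CPM in endothelial cells (1.95-fold) and from 238 to 68.8 CPM in mural cells (3.45-fold). Cox4i1 went from 519 to 335 CPM, 730 to 382 CPM, 572 to 370 CPM and 800 to 333 CPM in the same order. These 3 genes were lower in every class by more than their counting intervals.

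Mural cells stood out after adult injury. Their summed member level was lower by 0.94 on the log2 scale (95% interval -0.97 to -0.92), against -0.17 in the fibroblast lineage, and 78 of 79 tested members lay below 0. By complex, the summed ratios in mural cells were -1.14 for I, -0.57 for II, -0.94 for III, -1.06 for IV and -0.68 for V. Ndufb7 went from 205 to 52.9 CPM (3.86-fold), Ndufa5 from 180 to 55.3 CPM (3.25-fold) and Uqcrb, the ubiquinone-binding-site subunit of complex III, from 303 to 96.4 CPM (3.13-fold). Cox6c, a complex IV subunit, was at 457, 694, 753 and 304 CPM in the 4 libraries in the order above. The 1 tested member above 0 was Ndufa10, at 72.3 and 90.5 CPM (log2 ratio 0.33, interval 0.02 to 0.63), which did not reach 1.5-fold. Mural cells were added to this comparison after the summed levels had been seen, and the mural members named for it were chosen likewise.

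The mural cells of the adult libraries also differed in their other genes. Myh11, smooth muscle myosin, was at 3984 CPM in the adult control and 730 CPM after injury, beside 957 and 808 CPM in the neonatal libraries, and Acta2 at 12043 and 2874 CPM. Rgs5 was at 3545 and 6531 CPM. The summed level of the 12 fibroblast-lineage markers in mural cells was 2217 CPM in the adult control and 11170 CPM after injury, with 0 of the 12 at zero in either, and Col1a1 was at 370 and 4044 CPM, against 15790 and 27810 CPM in the fibroblast lineage itself. In the neonatal libraries that sum was 4263 and 7453 CPM. Their part in the mural result was not tested. Within mural cells holding a Myh11 UMI the members' share was 1.82% in the adult control (360 cells) and 0.933% after injury (101 cells), and without one it was 1.31% (36 cells) and 0.908% (19 cells). Cycling cells made up 1.52% of adult control and 30.0% of adult injury mural cells, whose median depths were 7457 and 9476.5 UMIs. After injury the members' share was 1.01% in cycling and 0.831% in other mural cells.

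**Figure D4:**
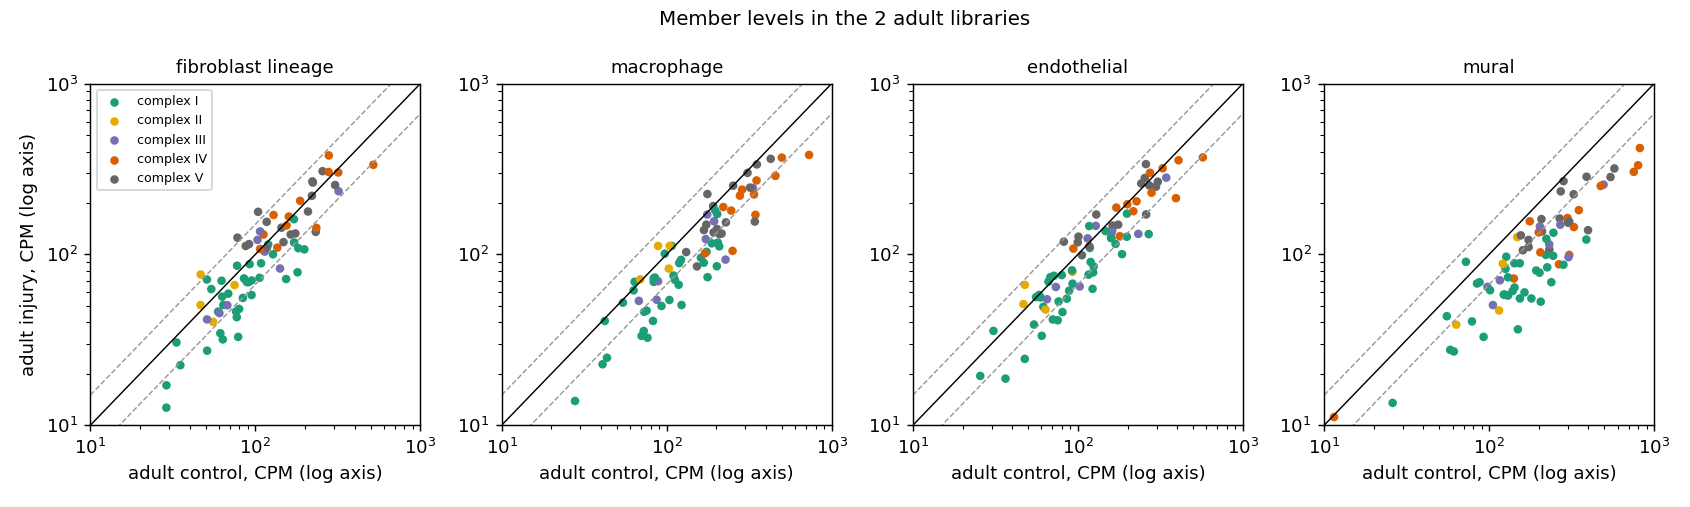
Each point is 1 member with at least 10 CPM in both adult libraries, coloured by complex; the x axis is CPM in the adult control and the y axis CPM after adult injury, both on log axes, with the solid line at equality and dashed lines at 1.5-fold. In mural cells 78 of 79 tested members lie below the line of equality, and Ndufs7, at 149 and 36.4 CPM, is the lowest by ratio.

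Adult injury ratios of the fibroblast lineage pointed both ways. The members called higher by the rule for named genes were Atp5g3, a gene for the c-ring subunit of ATP synthase, at 104 CPM in the control and 178 CPM after injury, Sdhc at 46.7 and 76.4 CPM, and Atp5mpl, a small accessory ATP synthase subunit, at 77.9 and 125 CPM. The fourth member called higher was the isoform Cox6b2, at 2.20 and 3.64 CPM. Ndufa3, Cox6c, Atp5g1, Cox6a1 and Atp5md came next with log2 ratios of 0.36 to 0.49, short of 1.5-fold. Cox8b and Cox4i2, described above, had the lowest ratios of all tested members. Among members reaching 50 CPM in either library the lowest were Ndufs7, Ndufa6 (180 and 78.6 CPM), Ndufb10, Ndufs3 (63.6 and 31.8 CPM), Ndufv1 (51.1 and 27.3 CPM), Ndufa13 (198 and 107 CPM), Ndufv2 (77.2 and 42.9 CPM) and Ndufa12 (61.4 and 34.6 CPM), all of complex I. With the same limit, the lowest in macrophages were Uqcrb at 228 and 93.3 CPM, Ndufa11 at 123 and 50.6 CPM, Ndufb10 and Cox5b, a general complex IV subunit, at 251 and 105 CPM. In endothelial cells they were Ndufc2 at 269 and 132 CPM, Ndufb10, Ndufa7 at 185 and 100.4 CPM and Ndufa4 at 393 and 214 CPM. The highest in those 2 classes were Atp5g3 and Sdhc in both, with Ndufa3 and Sdha in macrophages and Atp5mpl and Atp5g2 in endothelial cells, and none of them reached 1.5-fold.

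Neonatal injury gave calls in both directions. In the fibroblast lineage 30 of 82 tested members were lower and 6 higher (23% and 19.6% of all genes), in macrophages 25 of 80 lower and 7 higher (20.6% and 16.7%), in endothelial cells 20 of 79 lower and 20 higher (12.3% and 22.2%), and in mural cells 19 of 79 lower and 11 higher (12.6% and 19.1%). The members' medians were -0.24, -0.21, -0.04 and -0.01 on the log2 scale, against -0.05, -0.06, 0.13 and 0.10 over all tested genes. With the ratios centred on the median of all genes, 13 members were higher and 25 lower in endothelial cells, and 8 higher and 25 lower in mural cells. Restricted to cells in which Y-linked but no Xist UMIs were found, in both neonatal libraries, 29 members were lower and 7 higher in the fibroblast lineage (1162 injury and 4541 control cells), near the values for all cells. In mural cells, with 57 such cells in the injury library, 8 were lower and 23 higher, so the mural direction depended on this choice. The shares of all genes called among these cells are not given here, so the members' counts cannot be set beside them.

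Some members differed in the same direction in all 4 classes, which share the libraries. Of 78 members tested in all classes, 5 were higher in every class (Atp5e, Uqcr11, Uqcrq, Ndufa2 and Cox8a) and 16 lower in every class (Ndufa9, Ndufb8, Ndufc2, Ndufs3, Ndufs7, Ndufs8, Ndufv1, Ndufv2, Sdhb, Uqcrc2, Cox5a, Atp5a1, Atp5b, Atp5g3, Atp5o and Atp5pb), where 3.17% and 5.43% of 8452 genes did so. Atp5e, the epsilon subunit of ATP synthase, was at 197 CPM in neonate control and 439 CPM in neonate injury fibroblast-lineage cells (2.23-fold). It was at 229 and 451 CPM in macrophages, at 260 and 526 CPM in endothelial cells and at 231 and 432 CPM in mural cells. Atp5b, the catalytic beta subunit of the same enzyme, was at 294 and 148 CPM, 403 and 213 CPM, 532 and 271 CPM, and 685 and 398 CPM. Subunits of 1 enzyme thus differed in opposite directions in every class. Among fibroblast-lineage members with at least 50 CPM, Atp5pb, of the ATP synthase stator, was lowest (245 and 93.4 CPM, 2.63-fold), followed by Ndufa8 (172 and 70.0 CPM), Ndufv2 (102 and 42.3 CPM), Ndufv1 (59.3 and 25.5 CPM), Sdhb (95.5 and 42.1 CPM), Ndufs7 (84.4 and 37.3 CPM), Ndufs3 (76.1 and 34.5 CPM) and Uqcrc2 (73.9 and 34.9 CPM). After Atp5e the highest were Ndufa2 (124 and 216 CPM), Ndufv3 (58.8 and 99.0 CPM), Cox8a (246 and 412 CPM), Uqcr11 (78.0 and 122 CPM) and Uqcrq (85.0 and 131 CPM), and Uqcr10 and Atp5mpl were 1.48-fold higher, short of the threshold.

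Among members reaching 50 CPM in either library, the lowest in macrophages after neonatal injury were Ndufa9 (54.0 and 18.5 CPM), Uqcrb (210 and 79.1 CPM), Ndufa4 (366 and 166 CPM) and Uqcrc2 (89.4 and 40.5 CPM). In endothelial cells Ndufa9 (55.1 and 24.0 CPM), Ndufv1, Atp5b and Ndufv2 were lowest by the same limit, and Ndufv3 (47.3 and 96.3 CPM), Atp5e, Uqcr10 (124 and 247 CPM) and Ndufa2 (120 and 236 CPM) were highest.

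Shorter and longer members differed in this comparison. With the tested members split into 4 groups by length (83 of 84 members had one in the GENCODE M21 annotation, 321.5 to 2900 bases), their median log2 ratios in the fibroblast lineage were 0.34, -0.22, -0.45 and -0.80 from the shortest to the longest group. Other genes placed in these groups had medians of 0.20, -0.10, -0.35 and -0.02. Their medians also fell over the first 3 groups, but not in the last. The last group held 12408 other genes, against 164, 284 and 1089 in the others. How closely their lengths matched those of the members within a group was not tested. In mural cells the members' medians were 0.36, -0.23, -0.43 and -0.56, and those of other genes 0.40, 0.01, -0.20 and 0.12. Median depth also differed between these libraries, at 6251 UMIs per fibroblast-lineage cell in the neonate injury and 11000 in the neonate control library. The part of length and depth in the neonatal injury result was not tested. After adult injury the members' medians by length were 0.13, -0.17, -0.55 and -0.20 in the fibroblast lineage and -0.93, -1.07, -1.11 and -0.71 in mural cells, lowest in the third group in both.

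**Figure D5:**
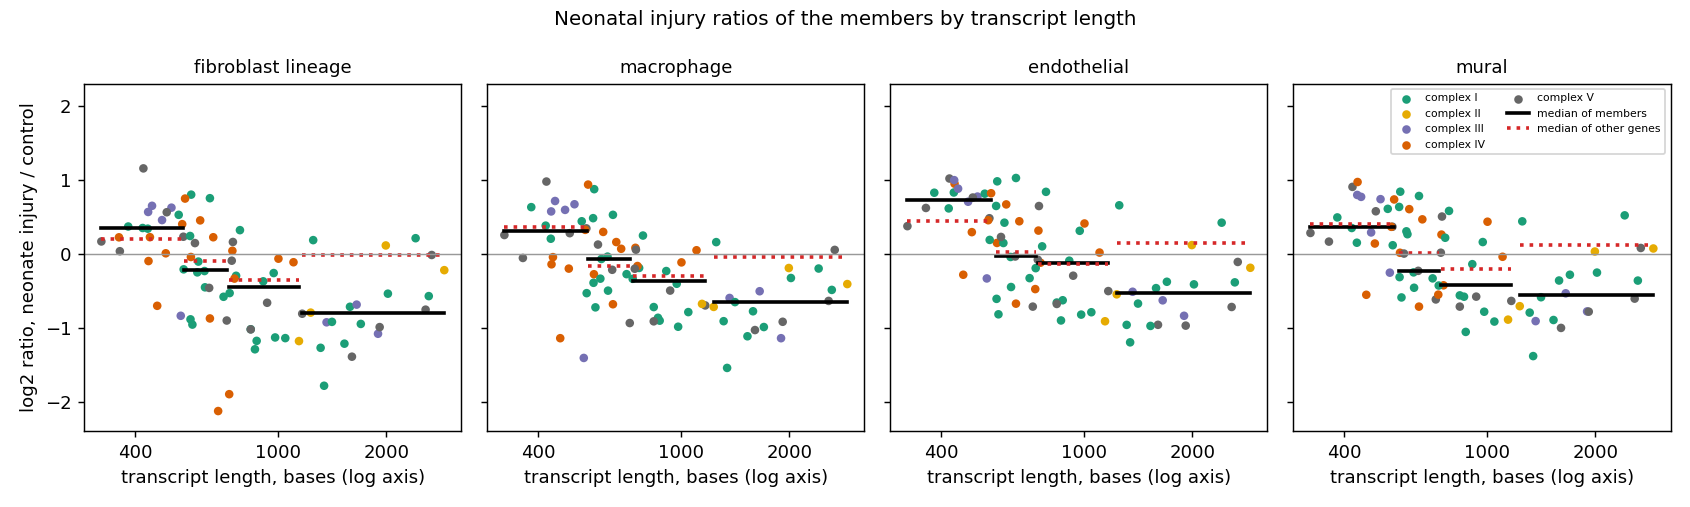
Each point is 1 tested member, coloured by complex; the x axis is transcript length in bases (log axis) and the y axis the log2 ratio of neonate injury to neonate control. The solid bars, medians of the members in each length group, step down from 0.34 to -0.80 in the fibroblast lineage. The dotted bars give the medians of other genes placed in the same groups.

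Each injury was also read beside the other. Tested in both, 9 of 81 members were lower in both neonatal and adult injury in the fibroblast lineage, 20 in neonatal injury alone and 13 in adult injury alone, where the shares of all genes tested in both were 7.85%, 13% and 16.5%. In macrophages the numbers were 11, 14 and 24 of 78 (6.63%, 12.9% and 14.8% of all genes), and in endothelial cells 7, 13 and 12 of 78 (2.56%, 8.68% and 13.3%). In mural cells they were 15, 4 and 46 of 79 (4.12%, 7.01% and 14.8%). Whether the members shared by both injuries were more than those of other genes was not tested. In each class 0 members were higher in both injuries. The shares of all genes higher in both were 7.89%, 6.42%, 4.08% and 7.46%, in the same order of classes. Ndufa9, Ndufs7, Ndufs8 and Ndufv1 were lower in both injuries in all 4 classes, and the share of all genes that did so is not given here. Whether the injuries differed could not be tested with 1 library each.

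Age was read from the uninjured libraries as neonate over adult. Fibroblast-lineage cells had 15 of 82 tested members higher in the neonate and 4 lower (28.7% and 21.4% of all genes), so that both shares lay below those of all genes. The median was 0.10, against 0.11 over all genes, and centring on the latter gave 11 higher and 7 lower. In endothelial cells 25 of 78 were higher and 2 lower (19.6% and 30.8%), with a median of 0.30 where all genes had -0.16. In macrophages 4 of 77 were higher and 13 lower (18.4% and 22.4%), and in mural cells 7 of 80 were higher and 15 lower (24.5% and 20%), so that the shares in these 2 classes were below or close to those of all genes. Centring gave 6 and 9 in macrophages and 6 and 22 in mural cells. Giving each cell the same weight gave 6 and 8 in macrophages and 11 and 8 in mural cells. The balance in these 2 classes thus depended on the scaling. Over the 4 length groups the members' medians rose from shortest to longest in every class. They were 0.065, 0.23, 0.47 and 0.64 in endothelial cells, where other genes had -0.03, 0.24, 0.315 and -0.21. In the fibroblast lineage they ran from -0.16 to 0.405, in macrophages from -0.58 to 0.17 and in mural cells from -0.50 to 0.27. The part of length in the age result was not tested.

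In endothelial cells 10 of 17 complex V and 3 of 4 complex II subunits were higher in the neonate. The numbers in the fibroblast lineage were 4 and 2, in macrophages 1 and 1, and in mural cells 2 and 0. Among endothelial members reaching 50 CPM in either library, the highest were Atp5g3 at 316 CPM against 129 CPM in the adult (2.44-fold), Ndufb5 at 251 against 118 CPM, Atp5o, of the ATP synthase stalk, at 218 against 106 CPM and Ndufa8 at 378 against 198 CPM. In the fibroblast lineage, with the same limit, Atp5g3 was at 222 against 104 CPM (2.13-fold), followed by Ndufa8, Atp5o, Sdhb, Atp5pb, Cox5a, Ndufc2 and Ndufa4 with folds of 1.68 to 1.93. Ndufa6, an accessory complex I subunit, was the 1 member lower in the neonate in all 4 classes, where 0 were higher. These were 1 and 0 of 77 members tested in all classes, where 4.00% of 8035 genes were lower and 5.95% higher in all 4. Ndufa6 was at 88.3 and 180 CPM in neonate and adult fibroblast-lineage cells and at 93.0 and 188 CPM in macrophages. In endothelial cells it was at 105 and 198 CPM, and in mural cells at 109 and 225 CPM. Ndufa1 was also lower in neonatal fibroblast-lineage cells (59.4 and 90.7 CPM), while Ndufv3, Ndufa13, Sdha, Ndufa2, Ndufa7 and Uqcr11 were 1.32-fold to 1.45-fold lower, short of the threshold. With the same limit of 50 CPM, in macrophages Sdhd, Ndufc2, Atp5g3 and Ndufs4 were highest in the neonate (at least 1.52-fold) and Ndufa6, Ndufa1, Ndufa13 and Uqcr11 lowest (1.68-fold to 2.02-fold), and in endothelial cells Ndufa7 was lowest (93.7 against 185 CPM).

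Members on the X chromosome were looked at separately because the neonate control differed from the other libraries in sex transcripts. Ndufa1 was at 59.4, 75.6, 90.7 and 68.8 CPM in the fibroblast lineage of the 4 libraries, Ndufb11 at 195, 151, 182 and 109 CPM, and Cox7b at 112, 107, 107 and 108 CPM. Of these 3, Ndufa1 alone was called in the age comparison of the fibroblast lineage, and Ndufb11 alone after adult injury (1.67-fold lower). None was called after neonatal injury in that class.

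For scale, the subunit with the highest mean CPM over the 4 libraries is given for each complex in the fibroblast lineage. Ndufa2 of complex I was at 124, 216, 171 and 161 CPM, Sdha of complex II at 53.3, 45.7, 74.8 and 66.2 CPM, Uqcrh of complex III at 260, 356, 320 and 235 CPM, Cox4i1 of complex IV at 608, 482, 519 and 335 CPM, and Atp5e of complex V at 197, 439, 256 and 307 CPM. Counts of a gene are not corrected for transcript length, so neither this choice nor these levels rank the genes by transcript number.

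Other mitochondrial and metabolic genes were counted by the same fold rule. In the fibroblast lineage 19.6% of all tested genes were higher and 23% lower after neonatal injury, and 27.2% and 24.9% after adult injury. Mitochondrial ribosomal protein genes, which make the mt- proteins, had 39 of 78 lower and 2 higher in the fibroblast lineage after neonatal injury (median -0.59) and 15 lower and 3 higher after adult injury (median -0.30). Mrps31 was at 19.9, 4.20, 15.1 and 4.37 CPM in the 4 libraries in the order above. Cytosolic ribosomal protein genes had 27 of 79 higher and 1 lower after neonatal injury (median 0.22). Glycolysis genes had 8 of 17 higher and 2 lower in the fibroblast lineage after adult injury (median 0.58) and 1 higher and 3 lower after neonatal injury (median -0.35). Hk2, which phosphorylates glucose on entry into the cell, was at 94.97, 197, 99.2 and 260 CPM, Pgk1 at 83.3, 65.3, 73.9 and 160 CPM and Pgam1 at 126, 95.1, 98.4 and 213 CPM. In mural cells 2 of 16 glycolysis genes were higher after adult injury and 5 lower (29.7% and 19.8% of all genes; median -0.29), with Ldhb at 44.6 and 10.6 CPM and Hk2 at 49.3 and 111 CPM.

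Regulators and partners of the chain gave mixed values. Hif1a, the oxygen-sensing transcription factor, was at 176, 227, 124 and 467 CPM in the fibroblast lineage, 3.77-fold higher after adult injury, and Ppargc1a, a coactivator of mitochondrial genes, at 5.97, 15.8, 5.67 and 2.19 CPM. In mural cells Nrf1 was at 46.3 CPM in the adult control and 99.3 CPM after injury, 2.14-fold higher, in the class with the largest number of members lower. Ndufa4l2, a hypoxia-induced relative of Ndufa4 that lies outside the 84 genes, was at 70.7, 99.95, 357 and 92.9 CPM in the fibroblast lineage, high in the adult control alone. Among the 15 electron carriers and other partners, 9 were lower and 0 higher in the fibroblast lineage after neonatal injury (23% and 19.6% of all genes). They were led by Etfb, which feeds electrons from fat oxidation, at 138 and 39.6 CPM. After adult injury 9 of these 15 were lower in mural cells and 1 was higher (19.8% and 29.7% of all genes). Among the lower ones were Slc25a4, the ATP/ADP carrier, at 726 and 296 CPM, and Ndufab1 at 159 and 62.9 CPM.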

How the data were processed

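Cells of the 4 tendon libraries were captured in droplets with barcoded beads, per the labels' protocols. The deposited files hold raw UMI counts per gene and cell barcode from Cell Ranger 8.0.1, per the file headers, with GRCm39 named in the submitters' processing notes; how reads shared with near-identical pseudogenes were assigned is not given in the sources used here. Barcodes with at least 500 genes, 1000 UMIs and at most 15% mt- UMIs were kept, and likely doublets were removed with Scrublet (scanpy 1.11.5) at 0.8% per 1000 barcodes. A cell received a class when at least 3 of the class's markers were detected, its marker score was at least 0.2 and the next class scored at most 0.66 of it; 1.39% to 6.74% of cells were ambiguous and stayed out. UMIs were summed per class and library (at least 50 cells). Log2 ratios used 0.5 added UMIs and exact binomial intervals (95%), which cover counting error only. Classes were compared with edgeR 4.0.16 in R 4.3.3, with DESeq2 1.42.0 as an alternative. The ratios and edgeR fits were tested on simulated data. Transcript lengths came from GENCODE M21 (GRCm38) by gene ID and promoters from RefSeq.

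Named members were the 8 highest and 8 lowest ratios with at least 50 CPM in the fibroblast lineage, 4 and 4 in macrophages and endothelial cells, the highest of each complex, all tissue isoforms, X-linked members, the 6 largest called changes of each class fit and up to 4 genes of each other list; members lower or higher in all classes and mural members were named after their values were seen. The members and lists were chosen with earlier results of these data known. Each library was 1 sample, and p-values between classes measure the spread over 4 libraries of different age and treatment. 1 member counted in the totals is not reported by name here.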

Additional observations from a re-analysis of the deposited data

Results flagged for a closer look

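In 13 cases a member was at least 1.5-fold lower after one injury and at least 1.5-fold higher after the other in the same class; with 1 library per group the difference was not tested. These were 1 of 81 members in the fibroblast lineage (1.23%, where 8.39% of all genes tested in both comparisons went opposite ways), 1 of 78 in macrophages (1.28% and 5.14%), 3 of 78 in endothelial cells (3.85% and 6.7%) and 8 of 79 in mural cells (10.1% and 4.76%). The values are log2 ratios of injury over control, neonatal minus adult. In the fibroblast lineage Atp5g3 differed by -1.68 (-0.90 in neonates and 0.77 in adults). In macrophages Ndufa6 differed by 1.33 (0.63 and -0.70). In endothelial cells Ndufa13 differed by 1.31, Ndufa6 by 1.47 and Ndufa7 by 1.695, each higher after neonatal and lower after adult injury. In mural cells 8 members were higher after neonatal and lower after adult injury: Uqcr11 by 1.62, Uqcr10 by 1.81, Ndufs6 by 1.703, Cox6c by 1.91, Ndufv3 by 1.49, Ndufa7 by 1.755, Ndufa2 by 1.71 and Cox8a by 1.699. Members of the shortest of 4 length groups had a median neonatal ratio of 0.36 in mural cells, and the part of length in these differences was not tested.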

How the results depend on the processing

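No paired analysis was possible because each group had 1 library. Of 272 recomputed counts by the fold rule 236 stayed within 1.5 times the reported count, and of 54 edgeR counts 24 did. Of 1518 values of single members 0 changed direction, 19 lost their call and 125 moved by more than their counting interval. The 2-fold rule, a minimum of 200 UMIs and no minimum beyond 1 UMI cannot alter the ratio of a single member. The 120 values under each of these settings were therefore the same by design. With a 2-fold rule the members higher and lower were 3 and 3 (fibroblast lineage, age), 1 and 14 (neonatal injury), and 0 and 6 (adult injury); in macrophages 0 and 1, 0 and 6, and 0 and 12; in endothelial cells 4 and 0, 2 and 1, and 0 and 1; in mural cells 1 and 3, 0 and 3, and 0 and 33. Scaling by the median ratio gave 7 lower with age in the fibroblast lineage and 13 higher after neonatal injury in endothelial cells. Without cycling cells the counts were 1 higher (fibroblast lineage, adult injury), 2 higher (macrophage, age), and in endothelial cells 4 lower with age, 13 lower after neonatal and 31 lower after adult injury. With no minimum beyond 1 UMI, 7 were higher in macrophages with age and 2 in endothelial cells after adult injury. The mean over cells gave 8 lower in macrophages with age, 1 higher in endothelial cells after adult injury, and 11 higher and 8 lower in mural cells with age; a stricter marker gate gave 11 higher in the last. Among cells holding Y-linked UMIs without Xist, 23 mural members were higher and 8 lower after neonatal injury; this setting, and all mural counts, were chosen after seeing the data. Against the fibroblast lineage, edgeR without the library block called 6 higher and 0 lower in macrophages, 2 and 1 in endothelial cells, and 4 and 1 in mural cells. With no expression filter it called 15 higher and 0 lower in macrophages and 6 higher in endothelial cells. DESeq2 called 20 higher in endothelial and 45 in mural cells. Nuclear genes alone gave 0 lower in macrophages and 1 in mural cells, and a stricter gate 0 lower in macrophages. Leaving out each library in turn gave 10 to 26 higher and 0 to 1 lower in macrophages, 4 to 18 and 1 to 3 in endothelial cells, and 8 to 46 and 0 to 2 in mural cells. The causes of these changes were not tested, and the shares of all genes called under these settings are not given here. Genes with few UMIs, such as Cox7b2 and Cox8c, and mural cells of the adult injury library (120 cells) limit what these counts can show.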
